A study of Homo sapiens with 16 samples.

Results

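The 50 genes described here encode the proteins that license, unwind and copy DNA during S phase, and those that protect the fork and repackage the copies. They were taken from the table by symbol, from a list of replication genes. All 50 were found among the 58051 gene identifiers measured, and all 50 were among the 13765 genes tested, which had a mean of at least 10 normalized counts over the 16 libraries. By role they fall into 9 licensing factors (ORC1 to ORC6, CDC6, CDT1, GMNN), 12 helicase genes (MCM2 to MCM7, MCM10, CDC45, GINS1 to GINS4) and 2 genes of the kinase that fires origins (DBF4, CDC7). A further 9 encode polymerase and primase subunits (POLA1, POLA2, PRIM1, PRIM2, POLD1, POLD2, POLD3, POLE, POLE2), and 7 the sliding clamp and its loaders (PCNA, RFC1 to RFC5, DSCC1). The others process the lagging strand (FEN1, LIG1), coat single-stranded DNA (RPA1, RPA2, RPA3), protect forks (TIPIN, TIMELESS, CLSPN, WDHD1) or assemble chromatin (CHAF1A, CHAF1B).

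RNA was sequenced from P493-6, an immortalised human B cell line that carries a MYC transgene switched off by doxycycline and an EBNA2 protein switched on by oestrogen. All cells grew in DMEM with serum; no additive is given for high MYC, and medium MYC was set with 0.1 µg/mL doxycycline and 1 µM beta-estradiol over 24 h. Cells then received DMSO alone or IMP1088 at 100 nM, which blocks the N-myristoyltransferases that attach myristate to an N-terminal glycine, and the titles give 24 h. The title of the study asks how inhibition of these enzymes acts at different MYC levels. DMSO controls and inhibitor-treated cells at each MYC level made 4 groups with 4 libraries each, all from this single line. Doxycycline, estradiol and the MYC level changed together in this design and cannot be told apart. Nothing in the labels says that the 4 libraries of a group came from separate cultures, so the p-values measure the spread between these libraries, which may be technical.

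DNA replication is prepared before S phase, when the origin recognition complex, CDC6 and CDT1 load the MCM2 to MCM7 ring onto DNA in an inactive form, while geminin (GMNN) blocks loading afterwards. The DBF4 and CDC7 kinase, with cyclin-dependent kinases, then adds CDC45 and the GINS complex to the ring, which turns it into the active CMG helicase. Polymerase alpha and primase start each strand, the RFC complex places the PCNA clamp, and polymerases epsilon and delta extend the leading and lagging strands. Many of these genes are known to be transcribed in a wave before S phase under E2F factors, and MYC is known to drive cells into S phase in B cells.

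Libraries held from 8755296 to 13858534 reads, and the 50 genes had from 88 reads (POLE2) to 5706 reads (MCM4) in a library. MYC was checked first because its level defines the groups. MYC mRNA stood at 34375, 32276, 30251 and 29693 normalized counts in the high MYC controls and at 959.6, 904, 1022 and 949 in the medium MYC controls. It was 33.0-fold lower at medium MYC among controls and 34.4-fold lower with the inhibitor, and the inhibitor raised it by 0.59 on the log2 scale at high and 0.53 at medium MYC. The exact permutation test gave p = 0.0286 for each of these 4 comparisons, the smallest value that 4 against 4 libraries allow, and 0.0286 after adjustment over the 4 tests. NMT1, a target of IMP1088, stood at 1479 to 1544 normalized counts in high MYC controls and 1681 to 1807 in medium MYC controls, and NMT2, the other target, at means of 2.79 and 14.6. The B cell label was met by its markers: MS4A1, CD79A, CD79B, PAX5, CD22, CD74 and BLK all passed the filter, with a summed level of 39928 to 42283 normalized counts in high MYC controls and 61391 to 65311 in medium MYC controls. In contrast, the 6 T cell, 6 myeloid and 6 stromal and epithelial markers summed to at most 243, 291 and 238 normalized counts in any library. Among those markers, DCN and KRT18 were at 0 in every library, while the summed levels of all 3 lists were higher in each medium MYC library than in each high MYC library. Their part in the changes below was not tested.

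Levels of different genes were compared per length, as RPKM (reads scaled to exon length and library size). On that scale PCNA, the clamp that holds the polymerases on DNA, was the most abundant of the 50 in high MYC controls, at 109 ± 4.70 (SD, n = 4). It was followed by the helicase subunits MCM3 at 76.8 ± 0.573 (SD, n = 4), MCM7 at 70.1 ± 0.578 (SD, n = 4), MCM4 at 60.4 ± 0.987 (SD, n = 4) and MCM2 at 50.4 ± 1.56 (SD, n = 4). The large primase subunit PRIM2 was the lowest, at 4.35 ± 0.272 (SD, n = 4), below ORC4 at 4.60 ± 0.385 (SD, n = 4) and GINS4 at 4.87 ± 0.225 (SD, n = 4), and the ranges of these 3 genes overlapped. The length used is the union of all annotated exons of a gene, not a measured transcript length, so the order of genes depends on the annotation. GINS2 at 19.6 ± 1.02 (SD, n = 4) stood above GINS1 at 13.9 ± 0.866 (SD, n = 4) and above GINS3 at 5.03 ± 0.360 (SD, n = 4).

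**Figure D1:**
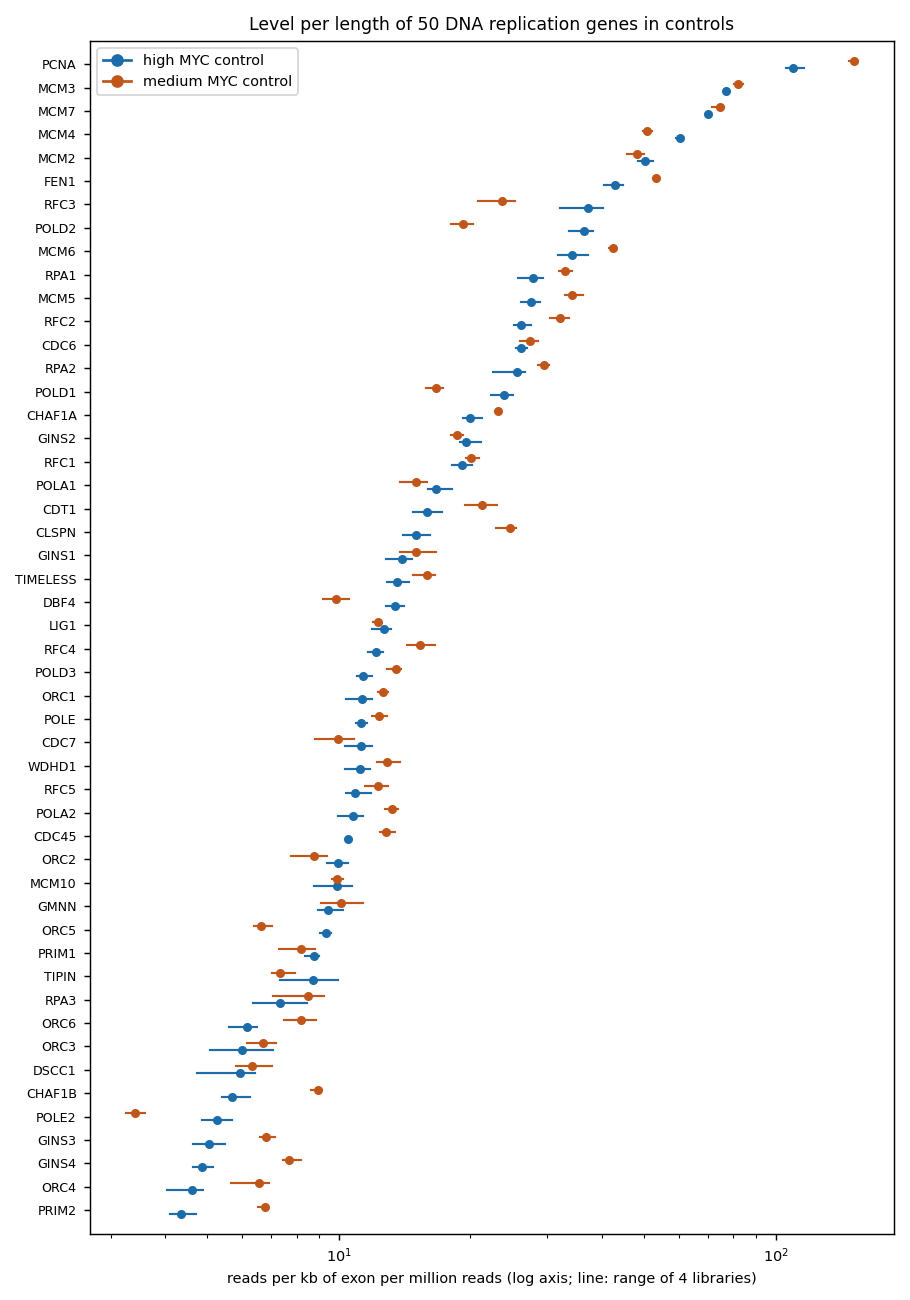
Level per length of the 50 genes in control libraries, in RPKM on a log axis, ordered by the high MYC controls; points are means and lines span the 4 libraries. PCNA lies at the top in both groups, and POLD2, RFC3, POLE2 and DBF4 lie to the left at medium MYC while CLSPN, GINS4 and PRIM2 lie to the right.

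Promoter sequence was available in RefSeq (GRCh38.p14) for 43 of the 50 genes, and the 250 bases before the RefSeq start were searched on both strands. The sequences printed here belong to 4 genes that fell with the inhibitor at both MYC levels (MCM3, MCM6, POLE, CLSPN) and to PCNA. PCNA is 1 of 3 genes whose response to the inhibitor differed between high and medium MYC. Each sequence is written 5′ to 3′ on the strand of its gene. Capitals mark the E2F words TTTCGCGC, TTTGGCGC, TTTCCCGC and TTTGCCGC, and the word CCAAT, in either orientation. MCM3, on the minus strand at chr6:52284882-52284992, is shown for the 111 bases that lie before its annotated exons:
MCM3: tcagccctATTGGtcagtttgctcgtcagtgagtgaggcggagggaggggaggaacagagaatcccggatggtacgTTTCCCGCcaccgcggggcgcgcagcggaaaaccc
MCM6, on the minus strand at chr2:135876444-135876693:
MCM6: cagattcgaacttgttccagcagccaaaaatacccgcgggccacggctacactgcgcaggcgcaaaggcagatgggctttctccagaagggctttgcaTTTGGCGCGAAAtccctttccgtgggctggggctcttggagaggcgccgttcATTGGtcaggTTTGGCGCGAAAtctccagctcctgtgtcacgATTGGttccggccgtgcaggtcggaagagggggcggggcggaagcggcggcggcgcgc
POLE, on the minus strand at chr12:132687343-132687592:
POLE: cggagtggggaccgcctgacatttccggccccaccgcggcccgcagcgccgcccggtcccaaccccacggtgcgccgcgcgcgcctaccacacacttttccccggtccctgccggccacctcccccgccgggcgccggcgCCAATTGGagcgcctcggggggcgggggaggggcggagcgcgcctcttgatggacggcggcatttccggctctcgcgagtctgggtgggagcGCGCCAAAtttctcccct
CLSPN, on the minus strand at chr1:35769979-35770228:
CLSPN: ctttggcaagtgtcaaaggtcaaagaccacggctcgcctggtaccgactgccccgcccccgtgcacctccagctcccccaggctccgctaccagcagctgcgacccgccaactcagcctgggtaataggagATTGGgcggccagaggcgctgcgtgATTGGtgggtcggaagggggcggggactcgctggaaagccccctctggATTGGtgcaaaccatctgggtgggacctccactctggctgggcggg
PCNA, on the minus strand at chr20:5126623-5126872:
PCNA: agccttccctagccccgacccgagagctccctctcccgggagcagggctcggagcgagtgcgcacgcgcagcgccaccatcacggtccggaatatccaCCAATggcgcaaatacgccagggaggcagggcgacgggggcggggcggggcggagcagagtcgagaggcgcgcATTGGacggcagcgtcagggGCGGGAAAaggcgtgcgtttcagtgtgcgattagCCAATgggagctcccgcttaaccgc
MCM6 held 4 matches to E2F words in 2 overlapping pairs, which began 152, 148, 90 and 86 bases before the start. POLE held 1, at 18 bases before the start, and PCNA held 1, at 59 bases. Of the other genes lower at both levels with a promoter entry, RFC2 held none of the words searched and POLA2 held 1 E2F word. CDC6 and PRIM1, the other genes whose responses differed, held no E2F word. None of these sequences is shown. CLSPN held none of the E2F words but held CCAAT in reverse orientation 3 times, at 119, 94 and 46 bases before the start.

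An E2F word was present in 12 of the 43 promoters (27.9%), against 2.79% of 27305 promoters of all genes and 4.56% of the 9888 promoters of tested genes. CCAAT was present in 24 of the 43 (55.8%), against 33.0% of all promoters and 36.1% of those of tested genes. The E-box word CACGTG, which MYC is known to bind, was present in 6 of the 43 (14.0%: MCM2, MCM7, FEN1, RPA1, TIMELESS, CHAF1A), against 6.49% and 9.20%. A word match describes these letters only and is not a measured site. MCM4, MCM5, GINS4, POLD3, DSCC1, RPA2 and RPA3 were not searched.

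Between the MYC levels, replication genes shifted by modest amounts and in both directions. Among controls, 28 of the 50 were higher at medium than at high MYC and 11 were lower, with CLSPN (log2 change 0.72) and POLD2 (-0.92) at the ends of the range. A gene is counted here when its Benjamini-Hochberg adjusted p from limma was under 0.05. The 39 genes are 78% of the 50, against 76.2% of all tested genes, a share close to that background. Of the 13765 tested genes, 9604 passed a stricter filter, a mean of 100, as did all 50 genes here. In the fit of those 9604 genes, 7901 were called, 3848 higher and 4053 lower, a share slightly above 78%. By direction, 56% of the 50 were higher, against 38.9% of tested genes, and 22% of the 50 were lower, against 37.3%. The median log2 change was 0.16 over the 50 genes and 0.02 over all tested genes. No gene of the 50 moved by 2-fold or more, whereas 24% of tested genes were called with a change of at least that size. The 4 libraries of each group did not overlap for 35 of the 50 genes, 26 higher and 9 lower, against 69.2% of tested genes (35.6% higher, 33.6% lower). RNA was taken from whole cultures, so a change in the share of cells in S phase and a change in RNA per cell cannot be told apart. Counts were scaled by a size factor per library and not to cell number. Higher and lower are therefore relative to the other genes, and amounts per cell were not measured.

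Licensing factors split by subunit. ORC4, a subunit of the origin recognition complex (chromosome 2, 147930397 to 148021604), held 376, 454, 429 and 438 normalized counts in the high MYC controls and 625, 622, 533 and 635 in the medium MYC controls. Every medium MYC library lay above every high MYC library, and the rise was 42.2% (log2 change 0.51, SE 0.06, adjusted p 2.1e-07). ORC5 (chromosome 7, 104126341 to 104208047), another subunit of the same complex, went the other way, from 373, 357, 348 and 362 to 266, 255, 252 and 248. All of its medium MYC libraries lay below all high MYC libraries, and it fell (log2 change -0.49, SE 0.05, adjusted p 3.01e-08). The exons of ORC4 overlap those of ACVR2A and MBD5 on the opposite strand, and its reads cannot be separated from theirs without strand. ORC6 (log2 change 0.41) and ORC1 (0.15) were also higher, while ORC2 was lower (-0.19) and ORC3 (0.17) did not pass; without high MYC control replicate 3 the rise of ORC1 was not called (adjusted p 0.0679). The loading factor CDT1 was higher by 33.2%. CDC6 (0.07, adjusted p 0.0895) and the CDT1 inhibitor GMNN (0.09, adjusted p 0.28) did not pass the threshold.

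Within the helicase, the largest rise was that of a single GINS subunit. GINS4 (chromosome 8), which links the MCM ring to CDC45, held 264, 272, 278 and 288 normalized counts in the high MYC controls against 456, 418, 438 and 423 in the medium MYC controls. The groups stood far apart, and the rise was 57.1% (log2 change 0.65, SE 0.06, adjusted p 1.18e-09). GINS3 was higher by 35.4%, whereas GINS1 (0.11) and GINS2 (-0.07) did not pass. The mRNA changes for the 4 subunits of this single complex thus spanned 0.72 on the log2 scale. Among the ring subunits, MCM4 (chromosome 8) was the only one of the 6 called lower. It held 4298, 4437, 4390.4 and 4292 in the high MYC controls and 3692, 3574, 3729.9 and 3593 in the medium MYC controls, groups that did not overlap, and fell by 16.2% (log2 change -0.26, SE 0.02, adjusted p 3.95e-09). MCM5 and MCM6 rose by 24.2% and 24.0%, MCM3 by 6.59% and MCM7 by 6.15%, and MCM2 (-0.06) did not pass. The rise of MCM7 was no longer called in 7 of 30 alternative analyses, among them a correction for GC content (log2 change 0.02) and the fits without high MYC control replicate 4 or medium MYC control replicate 3 (adjusted p up to 0.485 over all alternatives). CDC45, the helicase activator, rose by 21.9%. MCM10, which is known to help activate the helicase, did not pass (log2 change 0.00, adjusted p 0.996). Both subunits of the firing kinase were lower, DBF4 by 26.8% and CDC7 by 11.5%.

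The polymerases held the largest fall of the 50 genes. POLD2 (chromosome 7, 44114681 to 44124358), an accessory subunit of the lagging-strand polymerase delta, held 1475, 1423, 1282 and 1379 normalized counts in the high MYC controls and 679, 726, 790.3 and 742 in the medium MYC controls. The fall was 47.1% with no overlap (log2 change -0.92, SE 0.05, adjusted p 1.63e-13). Its catalytic partner POLD1 (chromosome 19, 50384204 to 50418016) held 1232, 1289, 1134 and 1220.5 against 866, 816, 903 and 811. It fell by 30.3%, again with no overlap (log2 change -0.52, SE 0.04, adjusted p 3.66e-10), while POLD3, another accessory subunit, rose by 18.5%. In polymerase epsilon, which copies the leading strand, the catalytic POLE rose by 9.31% and its partner POLE2 fell by 34.8%. With the GC correction and the replicate block the rise of POLE was 0.07 on the log2 scale and was not called (adjusted p 0.0535). PRIM2 (chromosome 6, 57314805 to 57646849), the regulatory subunit, held 215, 199.9, 226 and 199 in the high MYC controls and 326, 326, 322 and 332 in the medium MYC controls. It rose by 55.6% with no overlap (log2 change 0.64, SE 0.07, adjusted p 2.49e-08), whereas the catalytic PRIM1 did not pass (-0.10, adjusted p 0.205). POLA2 rose by 22.8% and POLA1, the catalytic subunit of polymerase alpha, fell by 10.2%. In all, 4 polymerase genes were higher and 4 lower.

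Clamp genes were mostly higher, with an exception inside the clamp loader. PCNA (chromosome 20, 5114953 to 5126626) held 1621, 1639.6, 1650.0 and 1748 normalized counts in the high MYC controls and 2304, 2256, 2288 and 2354 in the medium MYC controls. The ranges were well separated, and the rise was 38.2% (log2 change 0.47, SE 0.03, adjusted p 9.16e-12). RFC3 (chromosome 13, 33818049 to 33966558), a small subunit of the loader, held 961, 1131, 1193 and 1140.0 against 699.9, 743, 631 and 726. Each medium MYC library lay below each high MYC library, and the fall was 36.6% (log2 change -0.66, SE 0.06, adjusted p 4.46e-10). The other small subunits RFC4, RFC2 and RFC5 rose by 25.8%, 22.6% and 12.7%, while the large subunit RFC1 (0.07) did not pass. DSCC1, part of the alternative loader that serves sister chromatid cohesion, did not pass either (0.09, adjusted p 0.491). The rise of RFC5 was lost in 4 fits that each left out 1 library (high MYC control replicate 3 or 4, medium MYC control replicate 1 or 2), with adjusted p up to 0.0836. PCNA has 3 named pseudogenes and RFC3 has 1, whose reads the counting may have shared.

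Among the remaining genes, the fork mediator CLSPN (claspin), which carries the checkpoint signal to CHK1, had the largest rise, 64.2%, with 790.1, 873, 901 and 795 normalized counts at high MYC and 1389, 1411, 1307 and 1402 at medium MYC. The second largest rise outside the roles above was that of the histone chaperone subunit CHAF1B, at 56.5%, with CHAF1A at 15.6%. The 3 RPA subunits moved together, by log2 changes of 0.20 to 0.24, a span of 0.04. The call of RPA3 was lost in 9 of 30 alternatives, 5 of which left out 1 library (high MYC control replicate 1 or 4, medium MYC control replicate 1, 2 or 4), with adjusted p up to 0.148. TIMELESS and WDHD1 rose by 16.9% and 15.2%, and TIPIN, the binding partner of TIMELESS, fell by 15.5%. FEN1, the flap nuclease, rose by 24.1%, and LIG1, the ligase that seals Okazaki fragments, did not pass (-0.05).

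**Figure D2:**
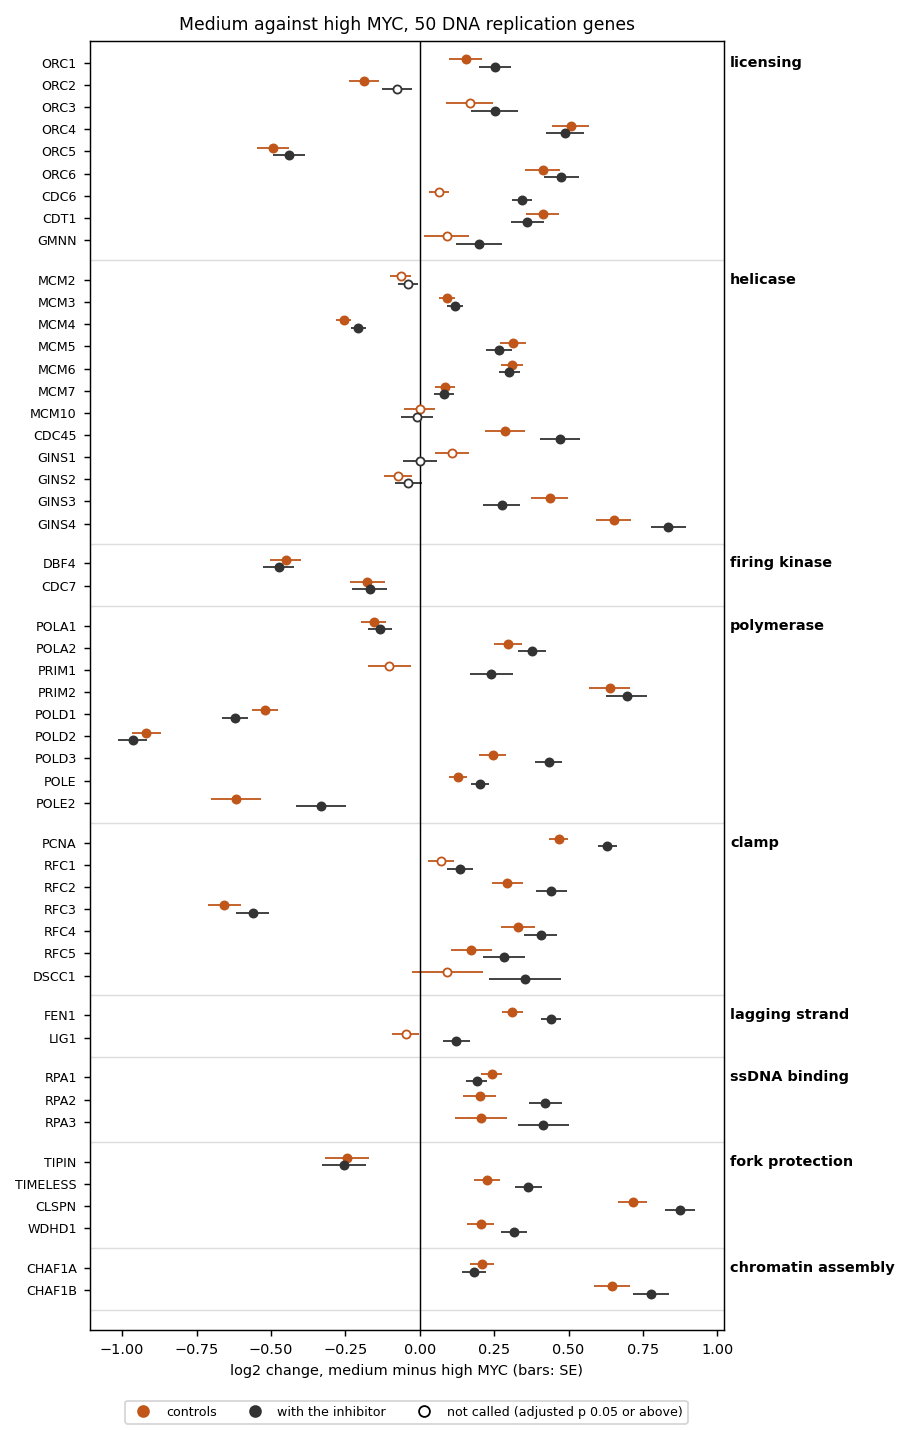
Log2 change from high to medium MYC for the 50 genes by role, in controls (orange) and with the inhibitor (dark); points are fitted changes, bars are standard errors, and open points have an adjusted p of 0.05 or above. Values run from -0.92 (POLD2) to 0.72 (CLSPN) in controls and from -0.96 to 0.87 with the inhibitor, and ORC, RFC and polymerase delta subunits lie on either side of 0.

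The same comparison made with the inhibitor present contrasted the other 8 libraries. Each gene's spread was estimated once over all 16 libraries, so these calls are not independent of those among controls. With IMP1088, 35 of the 50 genes were higher at medium MYC and 10 were lower, together 90%, against 77.5% of tested genes (39.7% higher, 37.8% lower). The stricter filter, a mean of 100, gave 7967 called of 9604 genes, 3935 higher and 4032 lower, still a smaller share than 90%. The median was 0.25 over the 50 genes and 0.02 over all tested genes, and no gene reached 2-fold, against 25.2% of tested genes. All 28 genes that were higher among controls were also higher here, which is 80% of the 35 and 56% of the 50, against 35.3% of tested genes. The 10 genes that were lower here were all lower among controls, which is 90.9% of the 11 and 20% of the 50, against 33.6% of tested genes, and ORC2 (-0.08, adjusted p 0.166) was the one lost. No gene was called in opposite directions, and 48 of the 50 had the same sign. The order of subunits was kept for the widest cases, with POLD2 at -0.96 against POLD3 at 0.43, RFC3 at -0.56 against RFC2 at 0.44, and ORC5 at -0.44 against ORC4 at 0.49. Libraries of the 2 MYC levels did not overlap for 41 of the 50 genes, 32 higher and 9 lower, against 72.6% of tested genes (37.2% higher, 35.4% lower). MCM2, MCM10, GINS1 and GINS2 were called in neither comparison. With the GC correction the log2 changes of MCM7, LIG1 and CHAF1A were 0.01, 0.05 and 0.11. Of the genes called with the inhibitor, MCM7, GMNN, LIG1 and DSCC1 lost the call in 9, 4, 4 and 1 of 30 alternatives. Among inhibitor libraries, these included leaving out high MYC replicate 1 or 4 or medium MYC replicate 2 or 3 (MCM7), high MYC replicate 1 or 2 or medium MYC replicate 1 (GMNN), replicate 2 of either level (LIG1), and medium MYC replicate 1 (DSCC1), with adjusted p up to 0.728, 0.086, 0.279 and 0.0655.

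Summed over each role, mRNA levels moved modestly. All 50 genes together gave 45598 to 46449 normalized counts in high MYC controls and 48162 to 49207 in medium MYC controls, with no overlap. Licensing factors summed to 4549.9 ± 48.9 (SD) at high MYC and 4981 ± 84.2 (SD) at medium MYC, the helicase genes to 19192 ± 190.3 (SD) and 19950.0 ± 486 (SD), and the clamp genes to 5600.1 ± 195 (SD) and 6186 ± 73.4 (SD). The polymerase genes went down, from 7513 ± 103 (SD) to 6867 ± 63.0 (SD), as did the firing kinase, from 1049 ± 40.0 (SD) to 832 ± 48.6 (SD). The fork protection genes went from 2645 ± 137 (SD) to 3394 ± 61.0 (SD). These sums are described without a test, and abundant genes weigh most in them.

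Genes of the same pathway outside the 50 also moved in both directions between the MYC levels. So did all tested genes, of which 38.9% were higher and 37.3% lower among controls. The lists below were not tested against these shares. In a list of 30 further replication genes, 14 were higher and 11 lower at medium MYC among controls, with the histone chaperone ASF1B at a log2 change of 1.19 and DONSON at 0.86. In the same list RNASEH2B, a subunit of the enzyme that removes RNA from DNA, was at -1.44 and the polymerase epsilon subunit POLE3 at -1.17. Of 9 genes of nucleotide supply, 5 were higher, among them the ribonucleotide reductase subunit RRM2 at 1.06 and thymidine kinase TK1 at 1.04, and 4 were lower, among them DCTPP1 at -1.71. Of 13 E2F and RB family genes, 5 were higher and 7 lower, with E2F8 at 1.04, E2F5 at -1.04 and the E2F partners TFDP2 and TFDP1 at -0.94 and -0.92. Of 12 genes for cyclins, CDKs and their regulators, 9 were higher and 3 lower. The rises were led by CDK2 at 1.87, the CDK inhibitor CDKN1B at 1.75 and cyclin CCND2 at 1.25, with the CDK inhibitor CDKN2C at 1.05. Of 12 markers of mitosis, 10 were higher and none was lower, with MKI67 at 1.07, and their sum was 25616 to 26570 normalized counts in high MYC controls and 37833 to 38391 in medium MYC controls. The part of the mitosis markers in the replication results was not tested.

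At high MYC, IMP1088 lowered part of the replication genes by small amounts. Of the 50 genes, 19 were lower with the inhibitor and 0 were higher, by limma at an adjusted p under 0.05. The 19 genes are 38% of the 50, against 16.3% of tested genes that were lower, 10.5% that were higher and 26.8% that changed in either direction. Under the stricter filter, a mean of 100, 2057 of 9604 genes were lower and 1106 higher. The share that was lower rose with this filter but stayed below 38%. Of the 50 changes, 46 were below 0, with a median log2 change of -0.11, against -0.02 over all tested genes. The range ran from -0.37 (CLSPN) to 0.07 (ORC3), so that no gene moved by 2-fold, a size seen in 1.56% of tested genes. The inhibitor and control libraries did not overlap for 22 genes, all lower, against 26.7% of tested genes (10.9% higher, 15.8% lower). At an unadjusted p under 0.05 and in the direction of a rise, 0 of the 50 genes passed, and edgeR and DESeq2 also called 0 higher. Quantile normalization shifted the split over all tested genes from 1442 higher and 2247 lower to 1727 and 1770, and under it 14 of the 50 genes were lower and 0 higher.

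By role, the genes lower at high MYC were 5 of 9 polymerase genes, 4 of 12 helicase genes, 3 of 4 fork protection genes, both lagging-strand genes, 2 of 7 clamp genes, 1 of 9 licensing factors, 1 of 3 RPA genes and 1 of 2 chromatin assembly genes. None of the ORC, GINS or firing kinase genes passed. PRIM1 (chromosome 12, 56731596 to 56752373), the catalytic primase, held 213, 220.1, 224 and 225 normalized counts in the controls and 160.2, 189, 183 and 163 with the inhibitor. The groups did not overlap, and the gene fell by 21.3% (log2 change -0.34, SE 0.07, adjusted p 0.00107). PRIM1 shares exon sequence with NACA on the same strand, so its count may hold NACA reads. RFC2 (chromosome 7, 74231499 to 74254458), a small subunit of the clamp loader, held 593, 636, 596 and 569 in the controls and 504, 444, 483 and 475 with the inhibitor. It fell by 20.4%, with all inhibitor libraries below all controls (log2 change -0.33, SE 0.05, adjusted p 5.41e-05).

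MCM4, the helicase subunit with the clearest fall at high MYC, held 3882, 3866, 3856 and 3829 normalized counts with the inhibitor, below all of the control values given above. It fell by 11.4% (log2 change -0.17, SE 0.02, adjusted p 1.4e-05). CLSPN held 667, 619, 643 and 664 with the inhibitor, which lies below its controls in every library, and fell by 22.7% (adjusted p 7.67e-06). LIG1, POLA2 and CHAF1B fell by 18.0%, 16.6% and 15.8%. POLE2, POLD3, POLE and FEN1 fell by 19.8%, 13.9%, 12.4% and 11.4%. MCM3, MCM5 and MCM6 fell by 7.89%, 10.2% and 11.3%. TIMELESS, WDHD1 and RPA2 fell by 9.44%, 9.82% and 11.3%, but these 3 calls were lost in 4, 3 and 7 of 30 alternatives (adjusted p up to 0.0919, 0.0741 and 0.0984), quantile normalization among them. Leaving out high MYC control replicate 2 ended all 3 calls, control replicate 3 those of WDHD1 and RPA2, control replicate 4 that of RPA2, and inhibitor replicate 1 those of TIMELESS and RPA2. MCM5 was lost without inhibitor replicate 2 (adjusted p 0.0527), and its log2 change was -0.09 with the GC correction. MCM7 (-0.01), RFC3 (0.00) and ORC5 (-0.01) had the changes closest to 0 among the genes with a fall that did not pass.

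At medium MYC, 12 of the 50 genes were lower with the inhibitor and 2 were higher, together 28%, against 26.3% of tested genes (14.6% lower, 11.7% higher). That share is close to the background of all tested genes, but below that of genes passing the stricter filter, a mean of 100. Under it 3361 of 9604 genes were called, 1469 higher and 1892 lower. The median log2 change was -0.04 over the 50 genes against -0.01 over all tested genes. The lower genes were 5 of 12 helicase genes, 3 of 9 polymerase genes and 1 each of the clamp, RPA, fork protection and chromatin assembly genes. The split over all tested genes turned with the scaling, from 1606 higher and 2012 lower as reported to 1962 and 1658 with equal library totals and 1963 and 1876 under quantile normalization. Under these scalings 3 of the 50 genes were higher and 10 or 9 lower, with a median of -0.015 or -0.026. No test compared the roles. The 2 higher genes were CDC6 and ORC1, each at a log2 change of 0.17. Inhibitor and control libraries did not overlap for 17 genes, 4 higher and 13 lower, against 27.9% of tested genes (12.4% higher, 15.4% lower). No gene reached 2-fold, against 0.886% of tested genes.

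GINS1 (chromosome 20, 25407727 to 25452628), a GINS subunit, had the largest fall at medium MYC. It held 691, 635, 593 and 605 normalized counts in the controls and 543, 497, 529.5 and 552 with the inhibitor. The groups did not overlap, and the fall was 15.9% (log2 change -0.25, SE 0.06, adjusted p 0.0022), against -0.14 (adjusted p 0.0685) at high MYC. POLD1 held 724, 755, 746 and 746 with the inhibitor, below its controls given above, and fell by 12.4% (log2 change -0.19, SE 0.04, adjusted p 0.00193). After the correction for GC content this change was -0.08 and was not called (adjusted p 0.0742, or 0.0878 with the replicate block), and POLD1 has a GC content of 65.0%. RFC2 held 756, 737, 741 and 700.0 in the controls and 668, 673, 665 and 586 with the inhibitor. It fell by 11.8% with no overlap (adjusted p 0.0117), but its replicate 4 with the inhibitor stood well below the others, and without it the call was lost (log2 change -0.13, adjusted p 0.0586). MCM5, MCM6 and POLA2 fell by 13.1%, 11.8% and 11.8%, and MCM4 and RPA1 by 8.28% and 8.90%. CHAF1A, POLE and MCM3 had log2 changes of -0.13, -0.12 and -0.09, and with the GC correction CHAF1A and POLE stood at -0.07 and were not called. The calls of CHAF1A, ORC1, MCM3 and POLE were lost in 6, 5, 3 and 2 of 30 alternatives (adjusted p up to 0.198, 0.0798, 0.078 and 0.111). Among medium MYC libraries, these included leaving out inhibitor replicate 1 or 2 for CHAF1A, control replicate 1 or 4 or inhibitor replicate 1 or 3 for ORC1, and inhibitor replicate 4 for MCM3.

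The 2 inhibitor comparisons contrast different libraries, but each gene's spread was estimated once over all 16 libraries, so their calls are not independent. CLSPN, MCM3, MCM4, MCM5, MCM6, POLA2, POLE and RFC2 were lower at both MYC levels, 8 genes that make up 42.1% of the 19 and 66.7% of the 12. They are 16% of the 50, against 8.38% of tested genes that were lower at both levels. Of these, 4 are subunits of the MCM ring, 2 are polymerase subunits, and claspin and RFC2 act at the fork and in clamp loading. Among the 6 of them with a promoter entry, 4 held an E2F word (MCM3, MCM6 and POLE, printed above, and POLA2), as did 6 of the 23 with an entry that changed at neither level. CDC6 was called in opposite directions. In all, 38 of the 50 genes had the same sign at both levels, and 26 were called at neither, among them ORC2 to ORC6, MCM2, MCM7, MCM10, GINS2, GINS3, GINS4, DBF4, CDC7, PRIM2, POLD2 and RFC3.

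**Figure D3:**
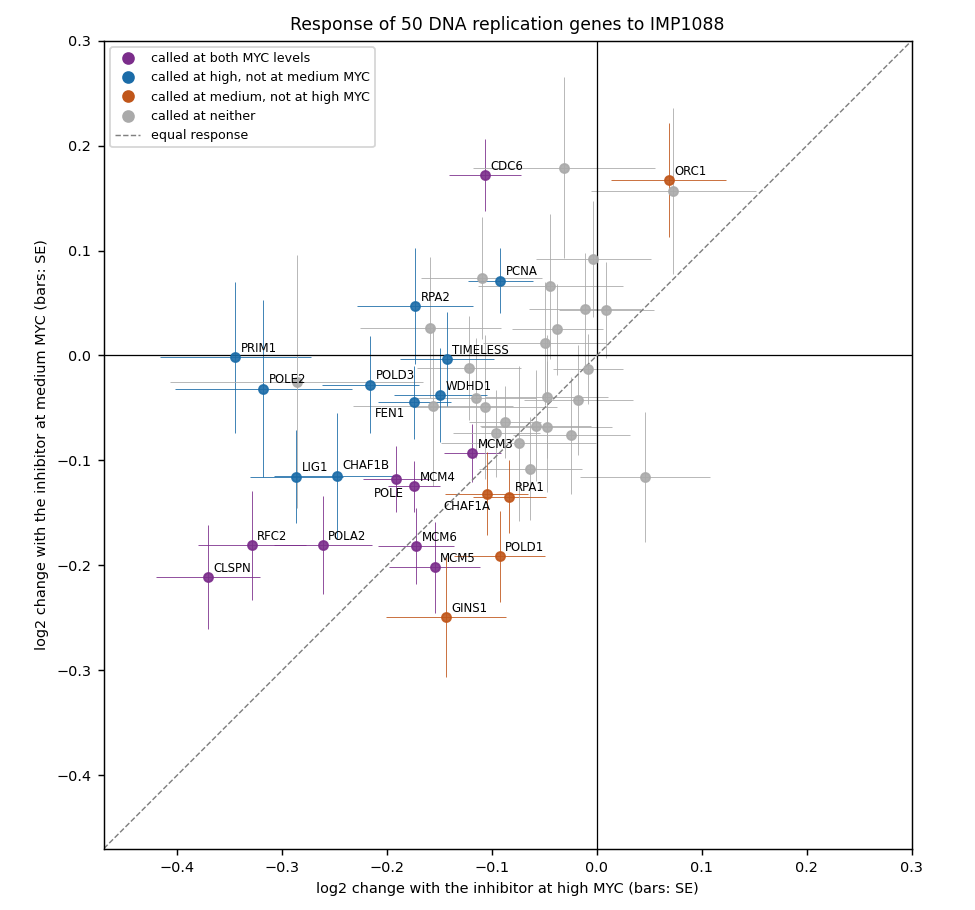
Log2 change with IMP1088 at high MYC (horizontal) and at medium MYC (vertical) for the 50 genes, with standard errors; colours show at which level the adjusted p was under 0.05, and the dashed line marks equal responses. Purple points other than CDC6 lie below 0 on both axes, CDC6 lies at -0.11 and 0.17, and PRIM1 lies at -0.34 and 0.00.

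Responses at the 2 MYC levels were then tested against each other within the model. The response at high MYC was lower than that at medium MYC for 3 of the 50 genes (6%) and higher for 0, against 8.63% of tested genes (5.33% lower, 3.31% higher), a share no larger than the background. Under the stricter filter, a mean of 100, the background was larger, at 1181 of 9604 genes (735 lower, 446 higher). CDC6 (chromosome 17, 40287633 to 40304657), the ATPase that recruits the MCM ring to origins, had the smallest p. Its normalized counts were 1523, 1502, 1456 and 1534 in high MYC controls and 1387, 1363, 1439.9 and 1394 with the inhibitor. At medium MYC they were 1612, 1610.4, 1571 and 1501 in the controls and 1782, 1787, 1840.3 and 1681 with the inhibitor. The inhibitor libraries thus lay below the controls at high MYC and above them at medium MYC, with no overlap in either case. The log2 change was -0.11 at high MYC and 0.17 at medium MYC (SE 0.03 for each), and the difference was -0.28 (SE 0.05, adjusted p 0.000538). The difference was called in all 29 alternatives that allow it, whereas the fall at high MYC alone was lost in 8 of 30 (adjusted p up to 0.268). These were equal library totals, quantile normalization (log2 change -0.06), no filter, DESeq2, and leaving out high MYC control replicate 1 or 4 or inhibitor replicate 1 or 2.

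PCNA held 1499, 1534, 1598 and 1615 normalized counts with the inhibitor at high MYC and 2439.6, 2409, 2404 and 2414 at medium MYC. All inhibitor libraries at high MYC lay below their controls, and all at medium MYC lay above theirs. The log2 change was -0.09 at high MYC (adjusted p 0.0324) and 0.07 at medium MYC (adjusted p 0.101), and the difference was -0.16 (SE 0.04, adjusted p 0.0211). The difference was lost without a mean trend, without high MYC control replicate 4 and without high MYC inhibitor replicate 1, with adjusted p up to 0.0558. The fall at high MYC alone was lost in 10 of 30 alternatives (adjusted p up to 0.285), among them quantile normalization (log2 change -0.05), edgeR, DESeq2, and leaving out high MYC control replicate 4 or inhibitor replicate 1 or 2. PRIM1 held 218, 208, 187 and 209 in the medium MYC controls and 202, 191, 220.4 and 209 with the inhibitor, groups that overlapped throughout. Its difference was -0.34 (SE 0.10, adjusted p 0.0393), and it was lost in 16 of 29 alternatives, with adjusted p up to 0.103. They were quantile normalization, no filter, the replicate block with and without the GC correction, DESeq2, and 11 fits without 1 library: high MYC control replicate 2, 3 or 4, high MYC inhibitor replicate 1 or 4, medium MYC control replicate 2, 3 or 4, or medium MYC inhibitor replicate 1, 3 or 4. For the other 47 genes the difference ran from -0.29 (POLE2, adjusted p 0.158) to 0.16 (GINS3, adjusted p 0.305) and did not pass, which does not show that the responses were equal.

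**Figure D4:**
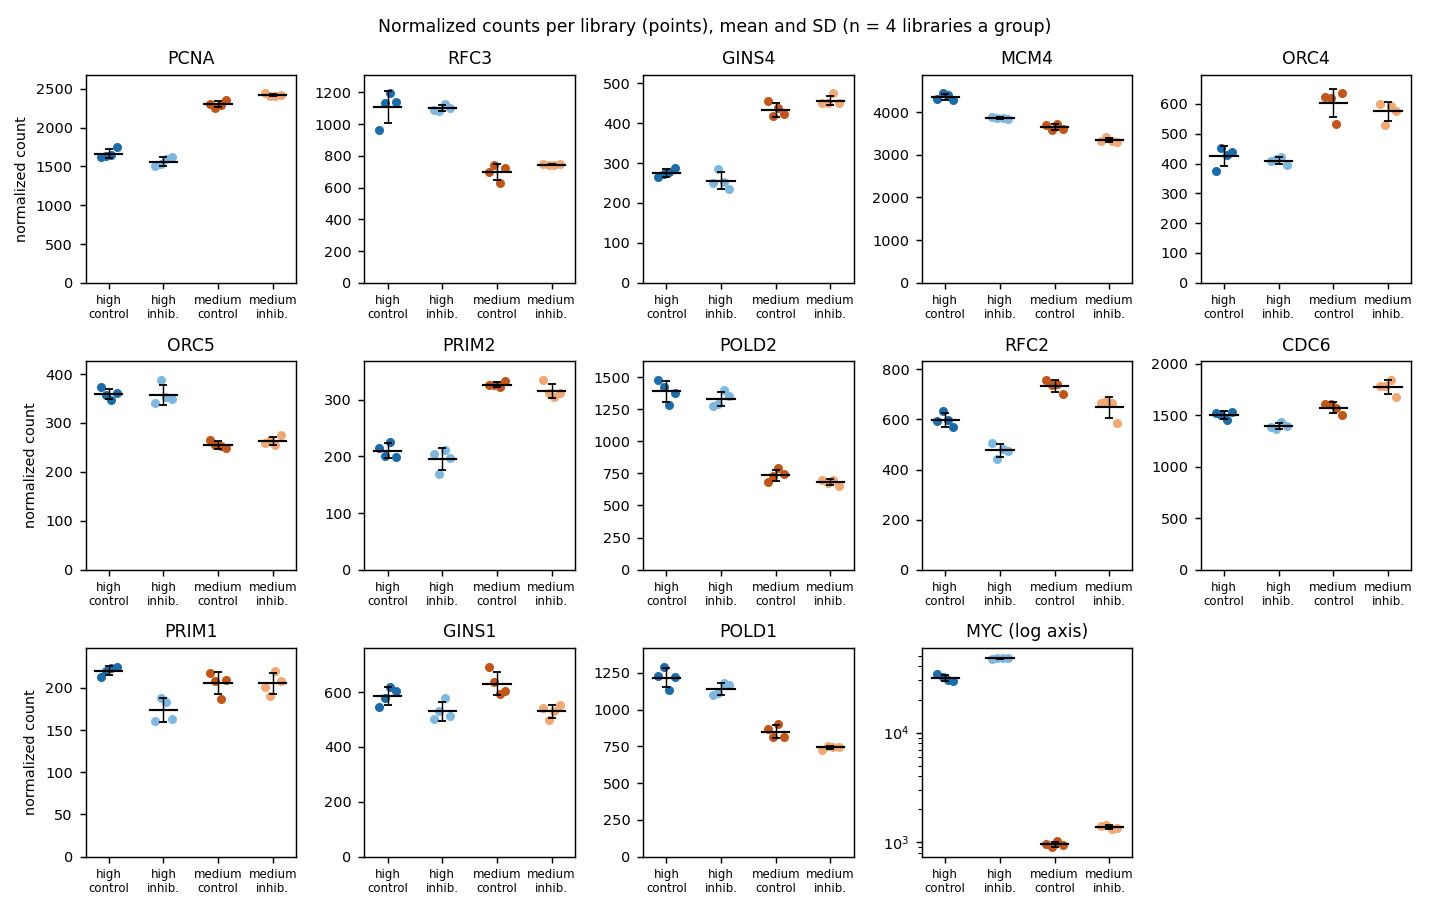
Normalized counts in each of the 16 libraries for the 13 genes described library by library and for MYC (log axis). Points are libraries, and bars are the mean and SD of 4 libraries. POLD2, RFC3 and ORC5 are lower in every medium MYC library, GINS4, ORC4, PRIM2 and PCNA are higher in every medium MYC library, and CDC6 is lowest with the inhibitor at high MYC and highest with it at medium MYC.

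Related genes were counted with the inhibitor in the same 2 comparisons. Of all tested genes, 16.3% were lower and 10.5% higher at high MYC, and 14.6% lower and 11.7% higher at medium MYC. The lists below were not tested against these shares. At high MYC, 9 of the 30 further replication genes were lower and 1 was higher (LRWD1, 0.29), with POLD4 at -0.61 and ASF1B at -0.49. At medium MYC, 5 of the 30 were lower, with POLD4 at -0.42, and 0 were higher. The share that was lower is close to that of all tested genes. Of the 9 nucleotide supply genes, 6 were lower and 1 was higher at high MYC, with RRM2 at -0.42 and SAMHD1 at -0.39, and RRM2B, the p53-responsive subunit, was the one higher, at 0.26. At medium MYC 2 were lower and RRM2B was again higher, at 0.51. RRM2 was also among the 3 of these 9 genes whose response differed between the levels, at -0.38, against 8.63% of tested genes. Of the 13 E2F and RB genes, 6 were lower and 0 higher at high MYC, with E2F7 at -0.41, against 1 lower (E2F8, -0.25) and 1 higher (TFDP2, 0.30) at medium MYC. Of the 12 genes for cyclins, CDKs and their regulators, 7 were lower at high MYC, with CCND3 at -0.59 and CDK2 at -0.33. At medium MYC 3 were lower and 2 higher, the CDK inhibitors CDKN1B at 0.70 and CDKN1A at 0.13. Of the 12 mitosis markers, 9 were lower and 0 higher at high MYC and 3 were lower and 0 higher at medium MYC. Their sum was 25616 to 26570 normalized counts in high MYC controls and 22531 to 23476 with the inhibitor, and the part of this in the replication results was not tested. The B cell markers moved as well, with 6 of 7 lower at high MYC and 4 of 7 lower at medium MYC, and their part was not tested either.

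With the inhibitor, the role sums went down for most roles at both MYC levels. The 50 genes together gave 42054 to 43186 normalized counts with the inhibitor at high MYC, below all of their controls, and 45797 to 46988 with it at medium MYC, again below all of their controls. The polymerase sum was 6775 ± 128 (SD) at high MYC and 6371 ± 120.3 (SD) at medium MYC, and the helicase sum was 17802 ± 193 (SD) and 18659 ± 335 (SD). The licensing sum was 4360.4 ± 88.6 (SD) at high MYC, below its controls, and 5189 ± 107 (SD) at medium MYC, above its controls. The clamp sum was 5266 ± 112 (SD) at high MYC and 6293.5 ± 156 (SD) at medium MYC. Its mean was thus lower than in controls at high MYC and higher at medium MYC, with overlapping libraries at both levels. For the firing kinase, the inhibitor sums, 1028 ± 40.1 (SD) at high and 807 ± 22.3 (SD) at medium MYC, overlapped their controls at both levels. Each sum is the mean ± SD of 4 libraries, and none was tested.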

How the data were processed

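RNA from 16 P493-6 libraries in 4 groups of 4 was measured by RNA sequencing. The authors deposited 1 table with a signal per Ensembl gene, named normalized counts in the deposited file. The submitters' processing notes name STAR 2.5.2a, RSEM 1.2.31, DESeq2 1.16.1 and GRCh38, and the annotation and strand setting are not given in the sources used here. Each column of the deposited signal is whole reads divided by a size factor (0.858 to 1.33). All values came out whole within 0.01 of a read, which gave 8755296 to 13858534 reads per library, and a gene's precision is limited by these reads.

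The values were tested as log2(value + 1), with 1 as pseudocount, so fold and percent changes are on that scale. The test was limma 3.58.1 in R 4.3.3 with a mean trend, over all 16 libraries and 13765 genes with a mean of at least 10, with Benjamini-Hochberg adjustment over all of them and a two-sided threshold of 0.05. It was tested on simulated data. MYC was tested by an exact permutation test. Each other analysis changed 1 choice, except that the GC correction was also run together with the replicate block: scaling, pseudocount (0.1, 10), filter (none, 100), mean trend, the groups in the fit, a replicate block, a GC correction (loess span 0.3), edgeR 4.0.16 or DESeq2 1.42.0 on the recovered reads, or 1 library left out, 30 in all.

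The 50 genes, their roles and the other lists were chosen with earlier results of these data known. Values in each library of a comparison are given for the called genes with its largest rise and fall in each role of 5 or more genes. This covers each inhibitor comparison and the MYC levels among controls. For each gene whose responses differed, all 16 libraries are given. CLSPN was added after its values were seen. Of each list outside the 50, up to 4 called genes with the largest change are named per comparison, and counts of 1 are named. Gene positions and exon lengths are from GENCODE 29 (GRCh38), and promoters from RefSeq. Of the 50 genes, 22 share exon bases with another gene and 7 have named pseudogenes, whose reads the counting may split. Whether residue 2 is glycine was not analysed here, and some genes of the other lists are not reported here.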

Additional observations from a re-analysis of the deposited data

Results flagged for a closer look

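In each group of 4 libraries, the gap between an end library and its nearest neighbour was set against the range of the group for the 13 genes chosen by rule to be described in full and for MYC, NMT1 and NMT2. Of 64 such groups of values, 3 had a library this far out (a gap beyond Dixon's 95% critical value), where chance gives about 1 in 20. GINS4 in the medium MYC inhibitor group stood at 474 normalized counts in replicate 3 and at 449.7 to 451 in the other 3 libraries. ORC4 in the medium MYC controls stood at 533 in replicate 3 and at 622 to 635 in the others. RFC2 in the medium MYC inhibitor group stood at 586 in replicate 4 and at 665 to 673 in the others.

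The response to IMP1088 differed between the MYC levels for 3 of the 50 genes (6%) by limma, against 8.63% of tested genes. Under the stricter filter, a mean of 100, it differed for 1181 of 9604 genes. On the log2 scale, the response at high MYC minus that at medium MYC was -0.28 for CDC6, -0.34 for PRIM1 and -0.16 for PCNA. The call was lost in 16 of 29 alternatives for PRIM1, in 3 for PCNA and in 0 for CDC6.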

How the results depend on the processing

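For the 13 genes described in full, the 30 alternatives were counted only for changes that were called as reported. Of these values, 1007 kept direction and side of the threshold, 40 lost the call and none changed direction. A called change is unlikely to turn, and changes not called, such as RFC3 and ORC5 with the inhibitor at high MYC, were not counted. The counts of called genes ranged from 14 to 23 (inhibitor at high MYC), 12 to 15 (inhibitor at medium MYC), 37 to 44 (MYC levels among controls), 44 to 45 (MYC levels with the inhibitor) and 2 to 4 (difference in response) when no library was left out. With each library left out in turn they ranged from 16 to 22, 12 to 15, 36 to 41, 43 to 45 and 1 to 4. On the recovered whole reads edgeR called 3703, 3858, 10556, 10632 and 1219 of all tested genes in these comparisons, and 18, 15, 38, 44 and 3 of the 50. The difference in response had 1 called gene without high MYC control replicate 4 and 1 without high MYC inhibitor replicate 1. The median log2 change of the 50 genes with the inhibitor at high MYC was -0.072 under quantile normalization. At medium MYC it was -0.015 with equal library totals, -0.026 under quantile normalization, -0.058 with the GC correction, with and without the block, and -0.064 to -0.037 with libraries left out. Between the MYC levels among controls it was 0.19 under quantile normalization and 0.14 to 0.16 with libraries left out, and with the inhibitor it was 0.22 to 0.27 with libraries left out. The cause of these shifts was not tested. A fit of only the compared groups gives no value for the difference in response.

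Same-numbered libraries varied together little on average. The mean correlation of their deviations was -0.07 and -0.02 for the inhibitor at high and medium MYC. It was 0.02 and -0.02 for the MYC levels without and with the inhibitor. Of the 16 pairs, 1 correlated best with its own number, replicate 4 of the MYC levels among controls (0.239). These correlations cannot show whether the libraries were paired by design. With the replicate block, 21, 13, 38, 45 and 3 genes were called in the 5 comparisons in the order above.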
